A study of Mus musculus with 2 samples.

Results

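The genes described here are the ligands Cxcl9, Cxcl10, Cxcl16, Ccl5 and Il15 and the receptors Cxcr3 and Cxcr6, which recruit, position or sustain T cells and natural killer (NK) cells in tumours. They were chosen by symbol, 7 of the 12584 genes of the count matrix, by a rule that uses no measured value but was set with earlier results of these data known, and each was followed through all 16 cell populations and both libraries. Single-cell RNA sequencing had been run on live CD45+ cells, the leukocytes, sorted from subcutaneous tumours of the mouse melanoma line YUMM3.3 (Braf-mutant, Cdkn2a-/-) grown in C57BL/6 mice and taken 12 days after injection by the record of the series, while the methods of the study name another day. The NTT library came from the line never exposed to targeted therapy. The RTT library came from a derivative that had become resistant to inhibition of BRAF and was kept in dabrafenib in culture. Each group was 1 library, and the sample labels do not give the number of tumours in it. Line, mouse, sort and library therefore cannot be told apart, and no test between groups was possible. The question asked was which populations held the ligands, which held the receptors, and how both differed between the libraries.

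CXCL9 and CXCL10 are chemokines that interferons induce in myeloid cells, and both attract activated T cells and NK cells through the receptor CXCR3. CXCL16 is made as a transmembrane protein whose chemokine domain is bound by CXCR6 on effector and resident T cells, while CCL5 attracts T cells and monocytes. IL-15 is held on IL-15 receptor alpha by the cell that makes it and is presented to neighbouring lymphocytes that carry the shared beta and gamma chains, encoded by Il2rb and Il2rg, which keeps CD8+ T cells and NK cells alive.

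The NTT library held 2975 cells with 19634099 unique molecular identifiers (UMIs, each a tagged transcript molecule), a median of 5398 per cell, and the RTT library 4840 cells with 44712071 UMIs, a median of 8336 per cell. Levels below are UMIs of a gene per 1000000 UMIs of the cells pooled (CPM). Ratios are log2 of the RTT level over the NTT level, and their 95% intervals, like all others here, cover counting error only, not mice or cells. Fewer cells of a type and less RNA of a gene per cell cannot be told apart in the values over all cells. For this reason, each gene was also compared within the 8 populations with at least 50 cells in each library. The libraries shared 7 barcodes. The population names are the authors' own. The label NK_cells did not match its marker genes well. A UMI of the T cell genes Cd3d, Cd3e or Cd3g was found in 153 of its 178 NTT cells and 46 of its 51 RTT cells. Its 10 T cell marker genes summed to 10232 CPM in NTT and 7947 CPM in RTT, and its 7 NK cell marker genes to 3194 and 1682 CPM. That population is therefore called NK_cells here as a label only, for T and NK cells together.

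Cxcl9 and Cxcl10 lie 18558 bases apart on mouse chromosome 5 (mm10, minus strand), Cxcl9 from 92321347 to 92328079 and Cxcl10 from 92346638 to 92348889. The 250 bases before each start are shown as a description of these ligands, which share a receptor. Any link between these bases and the ratios below was not tested. They are RefSeq sequence (GRCm38.p6, minus strand, chr5:92328080-92328329 for Cxcl9 and chr5:92348890-92349139 for Cxcl10), 5′ to 3′, and capitals mark matches to searched motifs.
Cxcl9: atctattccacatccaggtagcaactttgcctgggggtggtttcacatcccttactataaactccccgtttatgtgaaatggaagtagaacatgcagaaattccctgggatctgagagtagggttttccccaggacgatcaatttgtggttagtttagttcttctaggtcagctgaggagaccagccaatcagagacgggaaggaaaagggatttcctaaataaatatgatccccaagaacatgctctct
Cxcl10: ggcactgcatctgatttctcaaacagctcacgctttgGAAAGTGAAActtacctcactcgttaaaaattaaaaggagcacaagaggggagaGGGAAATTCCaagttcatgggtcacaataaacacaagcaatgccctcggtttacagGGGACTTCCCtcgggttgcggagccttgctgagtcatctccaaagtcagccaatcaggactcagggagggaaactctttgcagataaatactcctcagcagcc
Both strands were searched for an interferon-stimulated response element (GAAA, any 2 bases, GAAA), an interferon gamma activated site (TTC, any 3 bases, GAA) and the NF-kB consensus. The Cxcl10 window held 3 matches that did not overlap, all on the sense strand. GAAAGTGAAA lay at -213 to -204 from the start, GGGAAATTCC at -159 to -150 and GGGACTTCCC at -103 to -94, the latter pair matching the NF-kB consensus. The Cxcl9 window held 0 matches, which says only that these letters were not in it. Of 32851 promoter windows of the same length, 2.98% held the response element, 7.02% the activated site and 3.90% the NF-kB consensus. Of the other members, Cxcr3 (chromosome X) and Cxcr6 (chromosome 9) had a window, each with 0 matches, and Cxcl16 and Ccl5 (both chromosome 11) and Il15 (chromosome 8) had none.

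Over all cells, 5 of the 7 genes were at least 2-fold lower in RTT and 0 were at least 2-fold higher, against 11.6% of the 10258 genes with at least 100 UMIs that were lower and 9.09% that were higher. The median log2 ratio of those genes was 0.08, and that of the 7 members was -1.63. Cxcl9 was 442 CPM in NTT and 96.4 CPM in RTT, and Cxcl10 was 576 and 148 CPM. Ccl5 was 683 and 251 CPM (log2 ratio -1.44, -1.48 to -1.41), and Il15 was 30.4 and 9.84 CPM (-1.63, -1.81 to -1.44). The receptor Cxcr6 had the largest difference of the 7, with 508 UMIs or 25.9 CPM in NTT and 95 UMIs or 2.12 CPM in RTT (-3.61, -3.94 to -3.29). That ratio was -2.43 after thinning cells to equal depth and -4.30 in cells with at least 1500 genes. Cxcr3 was 6.67 and 3.76 CPM (-0.83, -1.17 to -0.49), short of 2-fold. Cxcl16 stood apart as the one member above its NTT level, with 741 CPM in NTT and 873 CPM in RTT (0.24, 0.21 to 0.26).

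Within populations the picture was more divided. Of 41 pairs of member and population with at least 20 UMIs, 13 were at least 2-fold lower in RTT (31.7%), 7 were at least 2-fold higher (17.1%) and 21 were neither, against 10.9% lower and 8.73% higher among all such pairs of genes and populations. Dendritic cells held most of the lower pairs. In cDC2, the type 2 conventional dendritic cells, 4 of 5 members were lower and 0 higher (background 8.59% lower, 9.61% higher), and 3 monocyte marker genes in these cells summed to 4936 CPM in NTT and 719 CPM in RTT. In cDC1, the cross-presenting type, 2 of 4 were lower and 1 higher (9.04% and 6.06%), and in DC3, which carried markers of mature dendritic cells, 2 of 5 were lower and 1 higher (10.2% and 8.35%). Monocyte_1 had 0 lower and 0 higher of 5 members (14.3% and 5.02%). In Infl_Mono, a label that names inflammatory monocytes, 1 of 5 was lower and 1 higher (11% and 10.7%). Its 6 macrophage marker genes summed to 9071 CPM in NTT and 32358 CPM in RTT, and its 3 monocyte marker genes to 10758 and 3503 CPM. The name is therefore used as a label only. Among macrophages, TAM_cycling had 2 of 6 lower and 0 higher (6.56% and 7.32%) and TAM_Spp1 had 2 of 5 lower and 2 higher (13.9% and 16.4%). NK_cells had 0 of 6 lower and 2 higher (13.2% and 5.25%). When a pair was counted only if its whole interval lay past 2-fold, 10 pairs were lower and 4 higher, against 2.77% lower and 1.9% higher among all pairs, and 1 of the 4 was Cxcl9 in NK_cells, which rested on 1 cell.

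**Figure D1:**
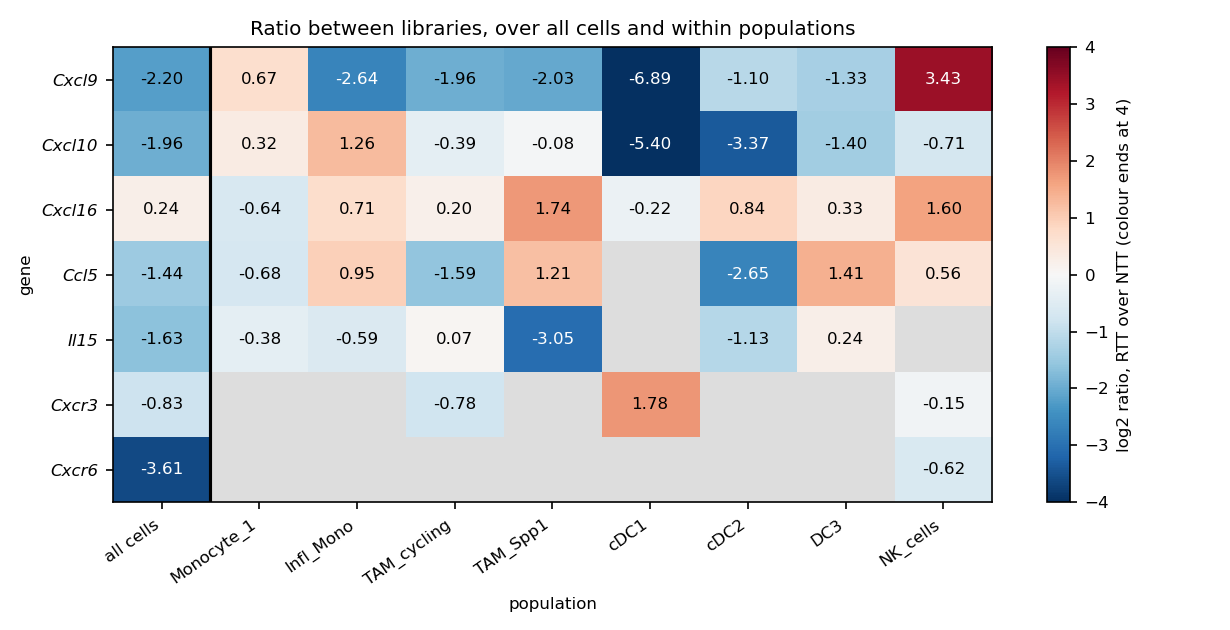
Log2 ratio of RTT over NTT for each gene (rows) over all cells and within the 8 populations with at least 50 cells in each library (columns); blue is lower and red is higher in RTT, and grey marks pairs with too few UMIs. The first column is blue for every gene but Cxcl16, while the rows of Cxcl10, Ccl5 and Cxcl9 hold both colours.

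Cxcl9 was led by different populations in NTT and RTT. In NTT, Monocyte_1 held 45.6% of its UMIs, Infl_Mono 18.0% and TAM_H2Ab1 14.8%. In RTT, TAM_H2Ab1 held 30.9%, TAM_cycling 26.5% and TAM_C1q 17.3%, while Monocyte_1 held 14.2% and Infl_Mono 1.09%. The 36 RTT cells of TAM_H2Ab1, macrophages named for a class II gene, thus held more Cxcl9 than the 2001 TAM_C1q cells. Their level was 3696 CPM (3500 to 3900), against 581 CPM in 169 NTT cells of that name, and 20 of the 36 had a UMI, the richest with 21.3% of the 1332 UMIs. No ratio was formed for so few cells.

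Because cells differed in depth, each was also thinned at random to 2000 UMIs before cells with a UMI were counted. At this depth a Cxcl9 UMI was found in 41.2% of RTT TAM_H2Ab1 cells (14 of 34, 24.6 to 59.3) and 23.7% of NTT ones (40 of 169, 17.5 to 30.8). Monocyte_1 stood apart in the same sense, at 731 CPM in NTT and 1163 in RTT (log2 ratio 0.67, 0.55 to 0.79), with 17.96% of NTT cells and 27.6% of RTT cells positive, a difference of 9.59 percentage points (1.31 to 19.4). The other macrophages with enough cells were lower. TAM_cycling had 365 and 93.8 CPM (-1.96, -2.10 to -1.82) and shares of 23.3% and 3.80%, and TAM_Spp1 had 28.2 and 6.88 CPM (-2.03) on 29 and 30 UMIs. In Infl_Mono the share was 11.9% in NTT and 3.26% in RTT. In NK_cells, which should not make the ligand, the share was 1.83% in NTT (3 of 164, 0.382 to 5.25) and 2.44% in RTT (1 of 41, 0.0617 to 12.9), at median depths of 5359 and 3967 UMIs before thinning. That RTT interval rests on 1 cell and is too wide to serve as a background. The RTT shares were 1.85% in TAM_C1q, 1.14% in TAM_Spp1 and 2.23% in cDC2. Single cells of TAM_C1q and cDC2 held up to 177 and 82 Cxcl9 UMIs before thinning.

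Among dendritic cells Cxcl9 was lower in RTT in all 3 populations. In cDC1 it was 287 CPM in NTT (188 UMIs) and 2.42 CPM in RTT, on 1 UMI (log2 ratio -6.89, -12.20 to -4.40). In cDC2 it was 186 and 86.4 CPM (-1.10, -1.36 to -0.85), and the richest RTT cell held 37.1% of its UMIs. In DC3 it was 587 and 233 CPM (-1.33, -1.73 to -0.96), but 55 of the 66 RTT UMIs lay in 1 cell, and without the richest cell of each library the ratio was -3.35. Leaving out the 5% of cells with the most UMIs instead took it to -0.33, short of 2-fold. The Cxcl9 ratio of 3.43 in NK_cells rested on 1 RTT cell that held all 33 UMIs, so it is no level of that population. The 6 macrophage marker genes summed to 360 CPM in NTT and 3295 CPM in RTT NK_cells, and without the cells that carried them strongly Cxcl9 had 0 RTT UMIs there.

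Cxcl10 differed from Cxcl9 in the monocytes. In Infl_Mono, its main source with 53.3% of its UMIs in NTT and 40.9% in RTT, Cxcl10 was 1916 CPM in NTT and 4588 CPM in RTT (log2 ratio 1.26, 1.19 to 1.33). In the same cells Cxcl9 was 498 CPM in NTT and 79.8 CPM in RTT (-2.64, -3.09 to -2.22), the RTT value resting on 47 UMIs in 4 cells. Without the richest cell of each library the Cxcl9 ratio was -4.04, and after thinning it was -1.75. The share of Infl_Mono cells with a Cxcl10 UMI was alike at equal depth, 45.2% in NTT and 44.6% in RTT (difference -0.59 points, -11.1 to 10.3). The higher pooled level therefore went with more UMIs per positive cell and not with a larger share of cells, and the mean of each cell's own CPM gave 0.97, short of 2-fold. The macrophage marker genes, none of 6 at 0, summed to 9071 CPM in NTT and 32358 CPM in RTT Infl_Mono, and 3 monocyte marker genes to 10758 and 3503 CPM. Their part in the ratios of Cxcl9 and Cxcl10 was not tested.

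In the other populations Cxcl10 lay under 2-fold or lower. In Monocyte_1 it was 429 and 537 CPM (0.32, 0.14 to 0.50), and in TAM_Spp1 40.8 and 38.5 CPM (-0.08, -0.58 to 0.44), an interval that includes no difference. In TAM_cycling, which held 28.6% of the RTT UMIs of Cxcl10, it was 203 and 155 CPM (-0.39). The dendritic cells went the other way from Infl_Mono. In cDC2 Cxcl10 was 432 CPM in NTT and 41.8 CPM in RTT (-3.37, -3.67 to -3.07), with a UMI in 17.8% of NTT and 1.98% of RTT cells at equal depth. In DC3 it was 549 and 208 CPM (-1.40), and 58 of the 59 RTT UMIs lay in 1 cell, without which the ratio was -6.92. Without the 5% of DC3 cells richest in UMIs it was -0.79. In cDC1 67 UMIs in NTT stood against 1 UMI in RTT (-5.40, -10.7 to -2.88). NK_cells had a Cxcl10 UMI in 6.71% of NTT and 2.44% of RTT cells, the latter 1 of 41 (0.0617 to 12.9), and the RTT shares of DC3 (1.92%) and cDC1 (1.85%) rested on 1 cell each. The 3 monocyte marker genes were also lower in the other RTT dendritic cells, at 3201 and 1073 CPM in cDC1 and 1401 and 152 CPM in DC3. The part of these genes in the lower Cxcl9, Cxcl10 and Ccl5 of dendritic cells was not tested. NTT neutrophils (Neutro) held Cxcl10 at 697 CPM, with 129 of 316 UMIs in 1 cell.

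Cells with both ligands were counted next. At equal depth 35.6% of the 382 NTT cells with Cxcl9 also had Cxcl10 (30.8 to 40.6), against 22.2% of all NTT cells. In RTT it was 17.6% of 142 cells (11.7 to 24.9), against 5.44% of all cells. In NTT Infl_Mono 48 of 71 Cxcl9 cells had Cxcl10 (67.6%, 55.5 to 78.2) against 45.2% of the population. In RTT Monocyte_1 4 cells were positive for both, where 6.34 would be met if the ligands were independent, a gap that so few cells cannot resolve.

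**Figure D2:**
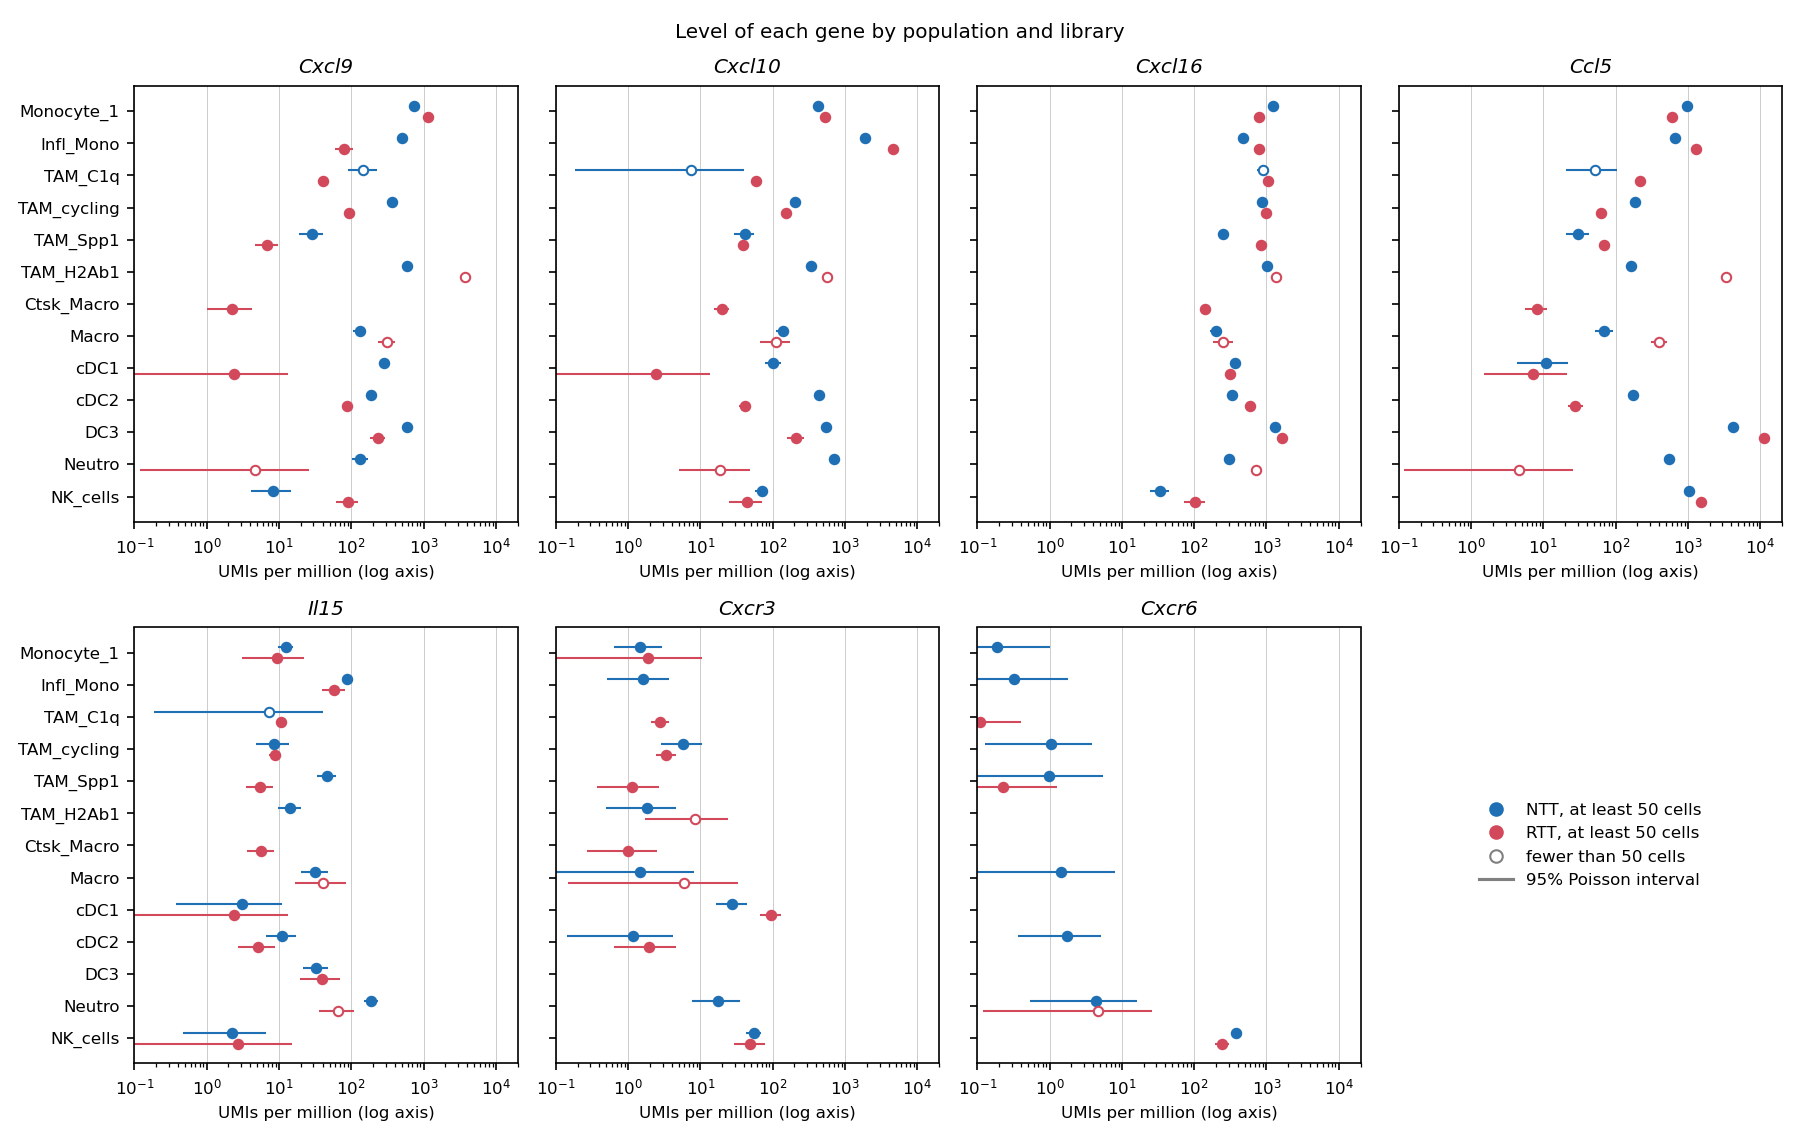
Level of each gene in CPM (log axis) in 13 populations, NTT in blue and RTT in red, with 95% Poisson intervals; open circles are populations with fewer than 50 cells in that library, levels of 0 are not drawn, and intervals that reach below the axis are cut. Cxcr6 stands far to the right only in NK_cells, while Cxcl16 lies above 100 in nearly every population but NTT NK_cells.

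Cxcl16 was the broadest of the ligands. At equal depth 52.3% of NTT cells and 72.3% of RTT cells had a Cxcl16 UMI, and 411 NTT and 1076 RTT cells were needed to hold 50% of its UMIs. Its main source was Monocyte_1 in NTT (45.5% of UMIs), and TAM_C1q (48.9%) and TAM_cycling (30.6%) in RTT. In TAM_C1q it stood at 1048 CPM in RTT, with a UMI in 1714 of 1995 cells (85.9%) at equal depth. The macrophages of the TAM_Spp1 label differed most, with 251 CPM in NTT and 839 CPM in RTT (log2 ratio 1.74, 1.56 to 1.93) and a UMI in 21.5% of NTT and 68.4% of RTT cells, a difference of 46.96 points (39.7 to 53.2). The 6 macrophage marker genes in these cells summed to 9684 CPM in NTT and 21534 CPM in RTT, and their part was not tested.

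In TAM_cycling (856 and 980 CPM, 0.20) and in monocytes and dendritic cells the Cxcl16 ratios stayed under 2-fold. Monocyte_1 was the population below its NTT level by most, with 1222 and 782 CPM (-0.64), while Infl_Mono had 475 and 776 CPM (0.71) and cDC2 had 335 and 601 CPM (0.84). The latter was also seen in the share of cells, 33.3% in NTT and 53.7% in RTT cDC2, a difference of 20.4 points (12.8 to 27.6). DC3 had the highest level of Cxcl16 of all populations in both libraries, with 1292 and 1621 CPM (0.33, 0.17 to 0.49). In NK_cells Cxcl16 was 33.9 and 103 CPM (1.60, 0.94 to 2.26) on 45 and 38 UMIs, and without the cells that carried markers of another lineage the ratio was -0.12. The share of NK_cells with a UMI was 6.1% and 9.76%, on 10 and 4 cells, and is no clean background, since the richest RTT cell held 20 of the 38 UMIs.

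Ccl5 had its highest level in DC3, with 4227 CPM in NTT and 11252 CPM in RTT (log2 ratio 1.41, 1.34 to 1.48). At equal depth 62.5% of NTT DC3 cells (80 of 128) and 84.6% of RTT ones (44 of 52) had a Ccl5 UMI, a difference of 22.1 points (7.63 to 33.5). None of the alternatives moved this ratio by over 1.5-fold. The marker genes of mature dendritic cells, none of 4 at 0, were close in the libraries, 6648 and 7173 CPM, while the macrophage marker genes were 855 CPM in NTT and 5022 CPM in RTT DC3, and their part was not tested. DC3 held 24.8% of all Ccl5 UMIs in NTT and 28.4% in RTT, from 4.54% and 1.18% of cells.

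The other dendritic cells held little Ccl5, 10.7 and 7.26 CPM in cDC1. In cDC2 it was 175 CPM in NTT and 27.8 CPM in RTT (-2.65, -3.05 to -2.28), opposite to DC3. In monocytes it was 972 and 605 CPM in Monocyte_1 (-0.68), with a UMI in 27.9% of NTT and 12.2% of RTT cells, and 664 and 1280 CPM in Infl_Mono (0.95, 0.83 to 1.07), where the shares were 17.6% and 15.2%. In NK_cells, whose T and NK cells are a known source, Ccl5 was 1038 and 1527 CPM (0.56, 0.41 to 0.70), and the share of positive cells was 28.7% and 51.2% (difference 22.6 points, 6.1 to 38.4). The macrophage ratios rested on few cells. In TAM_cycling 274 of the 354 NTT UMIs lay in 1 cell, and without the richest cell of each library the ratio went from -1.59 to 0.02. In TAM_Spp1 Ccl5 was 30.2 and 69.5 CPM (1.21), against shares of cells of 4.71% and 2.13%, so no direction is read there. RTT TAM_C1q held 35.4% of the library's Ccl5 UMIs at 218 CPM, in 174 of 2001 cells. The 36 RTT TAM_H2Ab1 cells stood at 3341 CPM, in 14 cells, against 162 CPM in NTT.

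Il15 was sparse, with 596 UMIs in NTT and 440 in RTT, and most positive cells had a single UMI. Infl_Mono was its main source in NTT, with 45.8% of UMIs and 86.8 CPM, and neutrophils followed with 14.4% at 190 CPM (152 to 234). In RTT TAM_C1q held 44.5% of Il15 UMIs at only 10.8 CPM and TAM_cycling 24.5% at 8.86 CPM. Infl_Mono stood at 57.7 CPM in RTT (log2 ratio -0.59, -1.15 to -0.07), with a UMI in 17.1% of NTT and 10.9% of RTT cells at equal depth (difference -6.19 points, -12.0 to 2.28; -0.753 in a second thinning). DC3 had 33.0 and 38.9 CPM (0.24, -0.93 to 1.30). The largest difference was in TAM_Spp1, 45.7 CPM in NTT and 5.51 CPM in RTT (-3.05, -3.83 to -2.31), with a UMI in 11.5% and 0.853% of cells. In cDC2 it was 11.1 and 5.08 CPM (-1.13, -2.27 to -0.04), on 19 and 13 UMIs, and thinning took the ratio to -0.32. The 36 RTT TAM_H2Ab1 cells had 0 UMIs of Il15, which allows up to 8.33 CPM, against 14.1 CPM in NTT. As background, NK_cells gave 2.26 CPM in NTT and 2.71 CPM in RTT, on only 3 UMIs and 1 UMI. RTT neutrophils had 65.3 CPM, but 29 cells carried that label, and their neutrophil marker genes stood at 16228 CPM against 75120 CPM in NTT while the macrophage marker genes stood at 38498 against 5779 CPM.

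**Figure D3:**
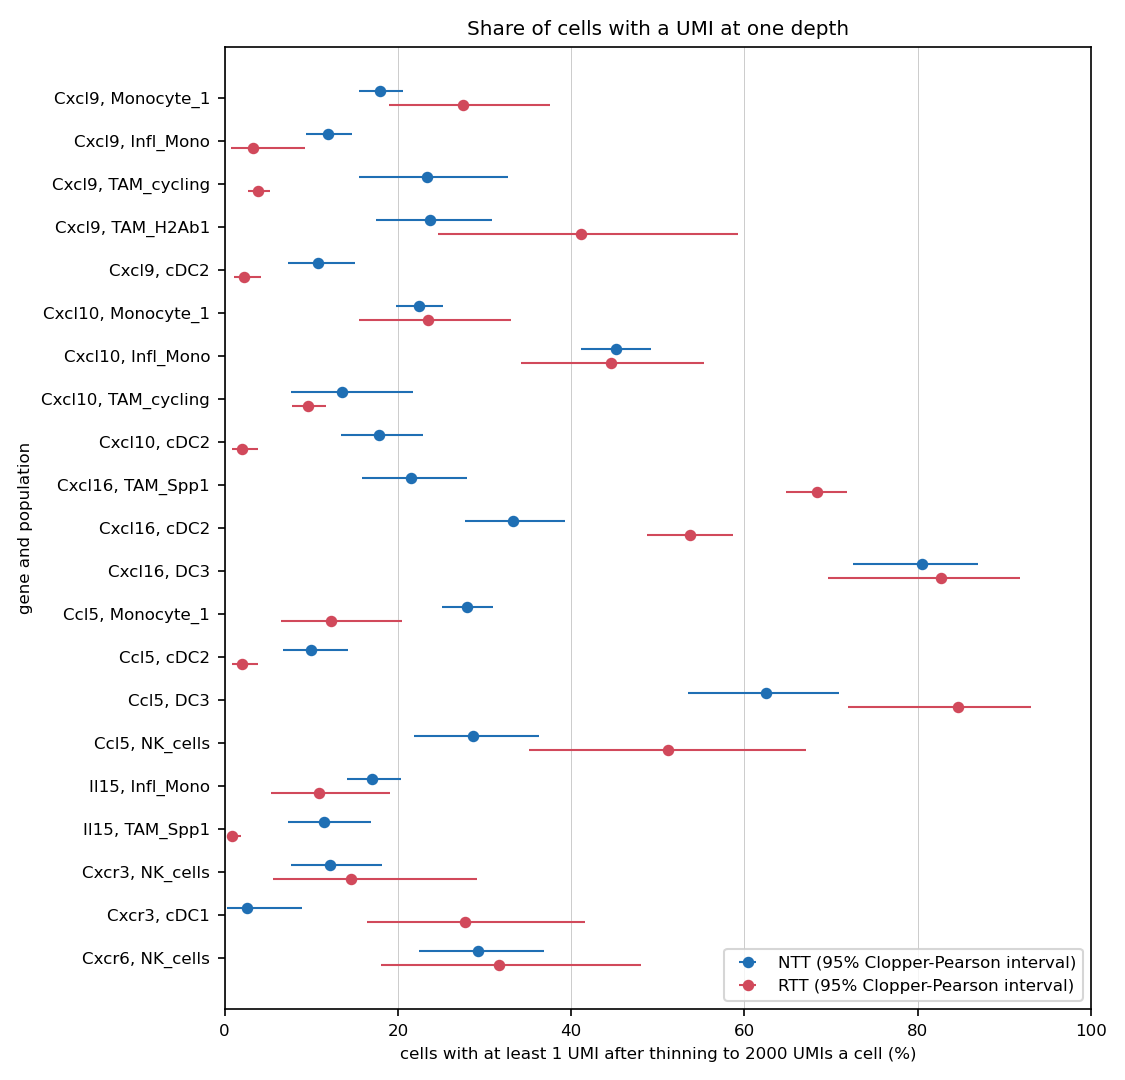
Share of cells with at least 1 UMI after each cell was thinned to 2000 UMIs, for 21 pairs of gene and population, NTT in blue and RTT in red, with 95% Clopper-Pearson intervals. The intervals of the libraries lie apart for Cxcl16 in TAM_Spp1 and, in this draw, for Cxcr3 in cDC1, and overlap for Cxcl10 in Infl_Mono and for Cxcr6 in NK_cells.

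Cxcr3, the receptor for CXCL9 and CXCL10, was found in NK_cells and in cDC1, but not only there. NTT neutrophils held 8 of the 131 NTT Cxcr3 UMIs (6.11%), from 3.06% of cells, and the 29 RTT neutrophils held 0. NK_cells stood at 54.3 CPM in NTT (72 UMIs) and 48.8 CPM in RTT (18 UMIs), a log2 ratio of -0.15 whose interval (-0.99 to 0.61) includes no difference. The share of NK_cells with a UMI was 12.2% and 14.6% at equal depth. In cDC1 it was 27.5 CPM in NTT (18 UMIs) and 94.4 CPM in RTT (39 UMIs, ratio 1.78, 0.94 to 2.67). At equal depth 2 of 78 NTT cells (2.56%) and 15 of 54 RTT cells (27.8%) had a Cxcr3 UMI, a difference of 25.2 points (13.3 to 38.5). The size depended on the random draw, since a second thinning gave 5.13% and 16.7%, a difference of 11.5 points (0.952 to 24.0). The same RTT cDC1 had 1 UMI each of Cxcl9 and Cxcl10, and the 4 cDC1 marker genes were 3653 CPM in NTT and 3530 CPM in RTT. The 3 plasmacytoid dendritic cell marker genes went from 141 to 2.42 CPM in cDC1 and from 674 to 173 CPM in cDC2, and their part was not tested. DC3 had 0 Cxcr3 UMIs in both libraries, which allows up to 3.80 CPM in NTT and 10.6 CPM in RTT. The macrophages together had 2.68 and 2.67 CPM. Because RTT held so many of them, they held 105 of its 168 Cxcr3 UMIs, and NK_cells held 10.7% of the Cxcr3 UMIs in RTT against 55.0% in NTT. The share of TAM_C1q cells with a UMI was 0.702% in RTT, a level read as background.

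Cxcr6 was nearly confined to NK_cells, which held 497 of 508 UMIs in NTT (97.8%) and 90 of 95 in RTT (94.7%). No other population with at least 50 cells in its library passed 4.41 CPM, the level of NTT neutrophils. Within NK_cells Cxcr6 was 375 CPM in NTT and 244 CPM in RTT (log2 ratio -0.62, -0.96 to -0.29), far less apart than over all cells, and 29.3% and 31.7% of cells had a UMI at equal depth (difference 2.44 points, -11.8 to 19.0). Its sign depended on pooling. The mean of each cell's own CPM gave 0.27, thinning gave 0.34 and cells with at least 1500 genes gave -1.16. NK_cells were 178 of 2975 NTT and 51 of 4840 RTT cells.

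The label was split by a UMI of Cd3d, Cd3e or Cd3g, genes of the T cell receptor complex, as a range of detection and not as a cell type. In NTT 153 cells had such a UMI and 25 had none, and in RTT 46 and 5. In NTT Cxcr6 followed the Cd3 genes, with 406 CPM with Cd3 and 35.9 CPM without. In RTT it was 258 and 94.7 CPM, the last on 3 UMIs (19.5 to 277). The RTT shares of cells with a Cxcr6 UMI were alike, 39.1% with Cd3 and 40% without, so no difference is read there. Cxcr3 did not follow the Cd3 genes in NTT, with 51 CPM with Cd3 and 89.8 CPM without (10 UMIs, 43.1 to 165), and 78.6 and 62.5 CPM after thinning. Ccl5 was higher in the cells without Cd3 UMIs, 4732 against 699 CPM in NTT and 3313 against 1359 CPM in RTT. Those 25 NTT cells carried the NK cell genes Ncr1 (799 against 16.5 CPM) and Gzma (8907 against 219 CPM) and 0 UMIs of Cd8a. In the 5 RTT cells without Cd3 UMIs, all 105 Ccl5 UMIs lay in 1 cell.

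The sources were then set against the make-up of the libraries. Populations labelled as monocytes (Monocyte_1, Monocyte_3 and Infl_Mono) held 69.4% of all Cxcl9 and Cxcl10 UMIs in NTT and 33.4% in RTT. Infl_Mono, whose RTT cells carried macrophage marker genes strongly, held 38.0% and 25.2%. The difference of each gene over all cells was divided into a part from the shares of populations and a part from levels within them. With levels averaged over the libraries, shares gave 136% of the difference for Cxcl9, 149% for Cxcl10, 187% for Ccl5 and 154% for Cxcr3, so that for these genes the levels within populations, summed, pointed upward. For Cxcr6 the part was 77.4%, for Il15 61.4% and for Cxcl16 12.7%. For Cxcl9 the weights decide the sign of the inner part. Shares gave 70.1% with NTT levels and 201% with RTT levels, where the few TAM_H2Ab1 cells weigh heavily. The inner parts of all genes include populations too small for a ratio. Among these, the 36 RTT TAM_H2Ab1 cells held 30.9% of the RTT UMIs of Cxcl9 and 10.7% of those of Ccl5. For Il15 the levels within populations were lower in RTT under each weighting.

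**Figure D4:**
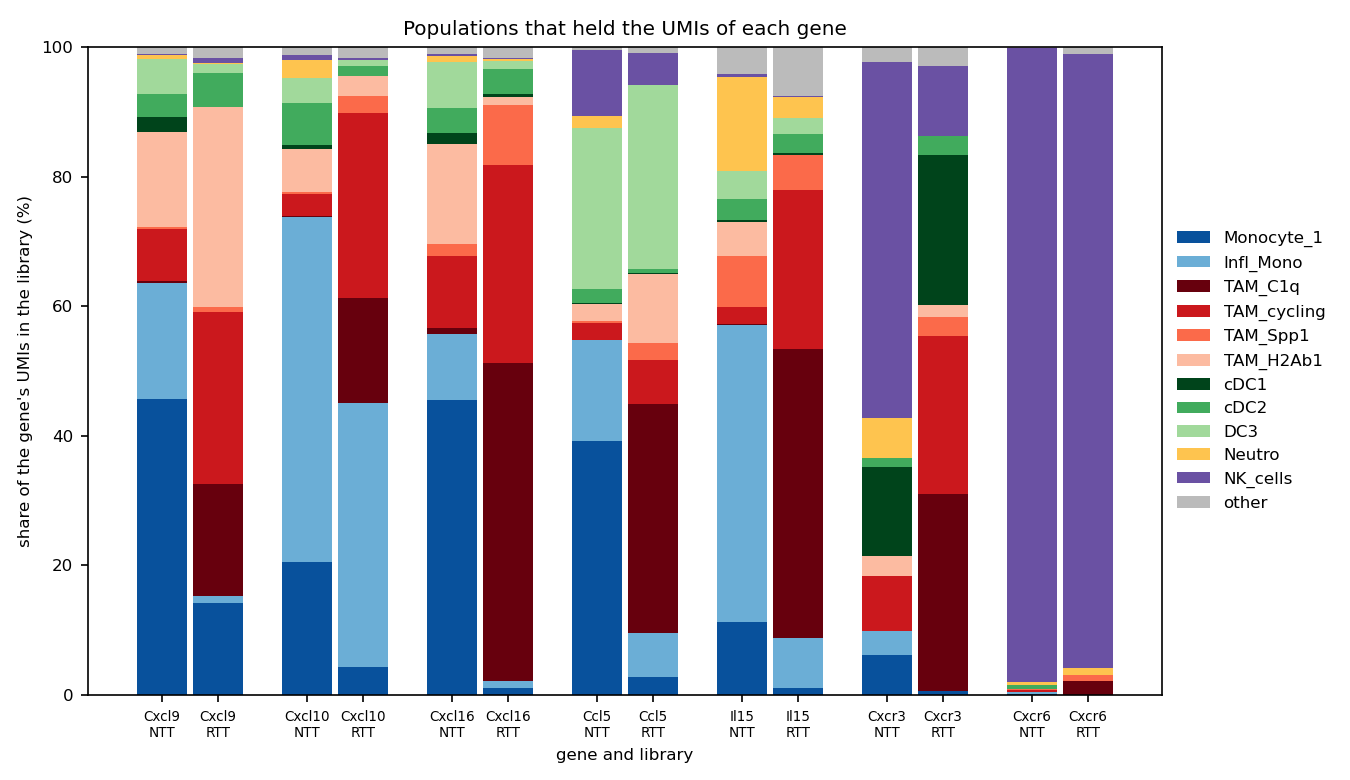
Share of each gene's UMIs (%, 0 to 100) that lay in cells of each population, one bar for each gene and library. Blues are monocytes, reds are macrophages, greens are dendritic cells, yellow is neutrophils and purple is NK_cells; the bars of the ligands turn from blue to red between NTT and RTT, and both Cxcr6 bars are purple.

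UMIs of the inducible ligands lay in few cells, so the counting intervals above understate the spread between cells. For Cxcl9, 47 cells held 50% of the UMIs in NTT and 16 in RTT, of 559 and 229 cells with a UMI. For Cxcl10 it was 93 and 26 cells, and for Ccl5 67 and 31 cells. The richest RTT cell alone held 284 UMIs of Cxcl9 (6.59%), 343 of Cxcl10 (5.19%) and 514 of Ccl5 (4.58%). Il15 was spread thinly instead, with a single UMI in 279 of 400 positive NTT cells and 333 of 381 positive RTT cells. Without the richest cell of each library the 5 members called lower over all cells were again 5.

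**Figure D5:**
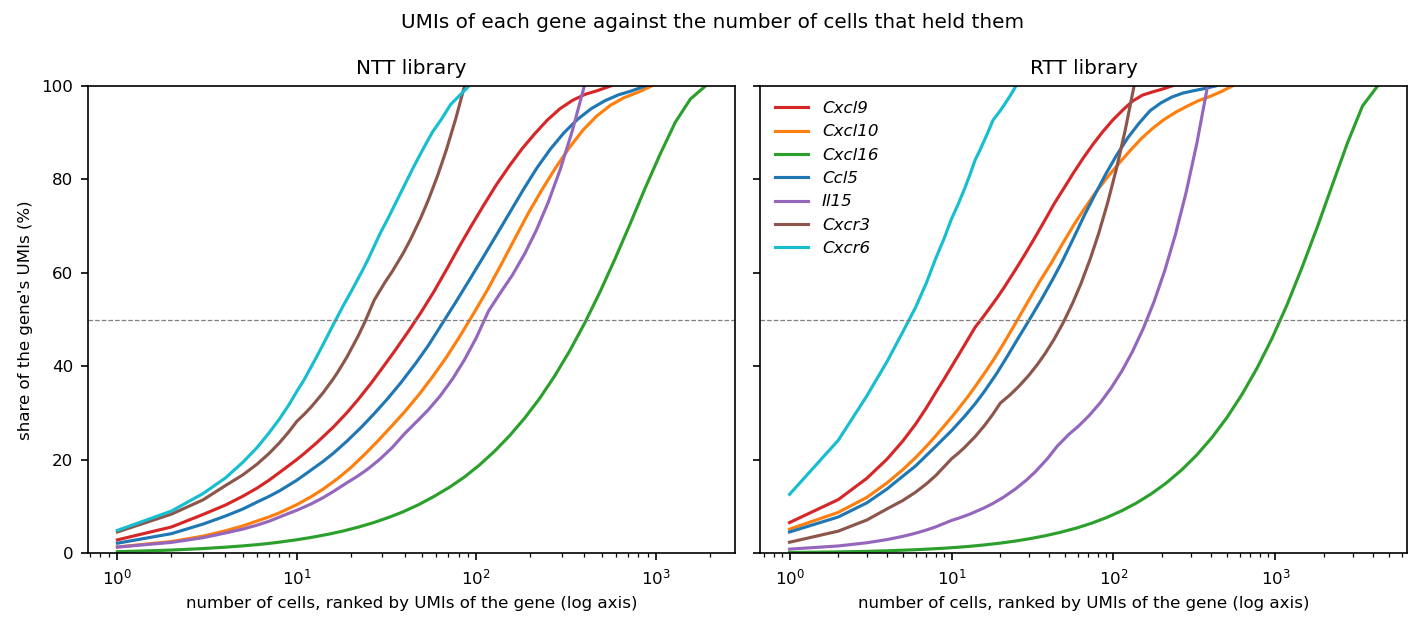
Share of a gene's UMIs (%) held by the richest cells, against the number of cells taken in order of their UMIs of the gene (log axis), NTT left and RTT right; the dashed line is 50%. The curves of Cxcl9, Cxcl10 and Ccl5 cross it at 47, 93 and 67 cells in NTT and at 16, 26 and 31 cells in RTT, while that of Cxcl16 crosses it at 411 and 1076 cells.

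Ligand and receptor were paired by the number of cells with a UMI at equal depth. Cells with Cxcl9 or Cxcl10 numbered 883 in NTT and 377 in RTT, beside 37 and 48 cells with Cxcr3. In RTT 26 of the 48 Cxcr3 cells were macrophages, at a share (0.653% of macrophages) read as background, 15 were cDC1 and 6 were NK_cells, against 4, 2 and 20 of the 37 in NTT. No ratio is read from these counts. For CXCL16 there were 1499 Cxcl16 cells to 53 Cxcr6 cells in NTT (28.3 to 1) and 3456 to 14 in RTT (247 to 1). For Il15 against Il2rb, whose product binds IL-15 on lymphocytes, it was 205 to 150 cells (1.37 to 1) in NTT and 96 to 21 (4.57 to 1) in RTT. The sizes depended on depth. At 1000 UMIs per cell, Cxcl16 to Cxcr6 was 25.8 to 1 in NTT and 161 to 1 in RTT. Il15 to Il2rb was then 0.99 to 1 and 2.29 to 1. Without thinning, the first pair gave 20.8 and 171 to 1 and the second 1.98 and 9.07 to 1. These are counts of detected cells in a sort for CD45 and not distances or contacts in the tumour. Because 3′ counting supports no comparison of levels between genes, each such ratio is read only between libraries.

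The other genes of these pathways were taken from a list of 57, of which 50 were in the matrix and 46 had at least 100 UMIs. Of these 27 were at least 2-fold lower in RTT over all cells (58.7%), 1 was higher and 18 were neither, with a median log2 ratio of -1.12. Among all 10258 genes with at least 100 UMIs, 11.6% were lower and 9.09% were higher. Among other chemokines Ccl3 (-2.19), Ccl4 (-1.47), Xcl1 (-1.32) and Cxcl13 (-1.18) were lower over all cells. Xcl1 had 392 UMIs in NTT and 357 in RTT, and NK_cells held 99.2% of them in each library. That label had 5.98% of NTT cells and 1.05% of RTT cells, so the Xcl1 ratio is no ratio of levels within NK_cells. Ccl17, a ligand for CCR4, was the gene that was higher (2.59, 57 and 783 UMIs), with 69.0% of its RTT UMIs in cDC2, the population in which 4 members were lower. Of the receptors 3 of 8 were lower over all cells, Ccr7 (-2.73), Xcr1 (-1.52) and Cxcr4 (-1.09). DC3 held 90.9% of Ccr7 UMIs in NTT and 85.8% in RTT, from 4.54% and 1.18% of cells. Likewise cDC1 held 45.5% and 94.0% of Xcr1 UMIs, from 2.62% and 1.16% of cells. The ratios of Ccr7 and Xcr1 are therefore no ratios of levels within these populations. Ccr1, a receptor for CCL5, differed little (0.25).

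The list set for the IL-15 axis also held genes of IL-2, IL-7, IL-12 and IL-18 or their receptors. Of its 14 genes 11 were lower, against 11.6% of all genes with at least 100 UMIs. That count is therefore not one of IL-15 signalling alone. Il2rb was 73.0 and 3.53 CPM over all cells (-4.37, -4.62 to -4.13) and, unlike Cxcr3, was also lower within NK_cells, with 1052 and 418 CPM (-1.33). Il15ra, the gene for the chain that presents IL-15, was -2.13 over all cells and -1.98 in Infl_Mono on 105 and 5 UMIs, while DC3 had 87.5 and 131 CPM. Il2rg was -1.16 over all cells and -0.09 in NK_cells. The others were Il2ra (-2.42), Il7r (-1.93), Il18r1 (-2.23), Il12b (-2.30), Il12rb1 (-3.99), Il12rb2 (-4.48), Stat5a (-1.07) and Stat5b (-1.09). Of the enzymes that cut these ligands, Adam10, which sheds CXCL16, was 0.26 and Adam17 was 0.07, while Dpp4, which trims CXCL10, was -2.05.

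The list set for the interferon axis above the ligands also held Tnf, Nfkb1 and Rela, genes of TNF and NF-kB signalling. Of its 14 genes 8, Tnf among them, were lower over all cells, against 11.6% of all genes with enough UMIs. Ifng was 39.2 and 2.93 CPM (-3.74), with at least 98.4% of its UMIs in NK_cells in each library, where it stood at 571 and 355 CPM (-0.69). Also lower were Stat2 (-2.73), Irf1 (-2.30), Irf8 (-1.07), Irf9 (-1.23), Socs1 (-2.65) and Tnf (-1.40).

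Last, the genes with the pattern most like each member were sought over 21 units, each a population of at least 50 cells in 1 library. The measure was Pearson's r of log2(CPM + 10) among 8220 genes, as a description only, since units share libraries, depth and cells. Cxcl10 was most like the interferon-induced genes Oasl1 (0.93), Ifit3 (0.90) and Ifit1 (0.88). Cxcl9 had weaker partners, Il18bp (0.78), Irf7 (0.74) and H2-D1 (0.74), and its r with Cxcl10 was 0.68. Cxcl16 was nearest to the cathepsin genes Ctsh (0.89) and Ctsz (0.86) and to Cnpy3 (0.84). Ccl5 was nearest to Plcl2 (0.82), Rnf115 (0.81) and Il15ra (0.81), and Il15 to Zfp36 (0.86), Litaf (0.86) and Cask (0.85). For Cxcr6 the partners were the lymphocyte genes Gimap7 (0.999), Skap1 (0.998) and Gimap4 (0.997), a value that NK_cells alone set. For Cxcr3, found in both NK_cells and cDC1, they were Rfx7 (0.83), Cenpv (0.83) and Pdlim2 (0.81).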

How the data were processed

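Per the labels and the study's methods, live CD45+ cells of NTT and RTT tumours were sequenced as 1 library each with a 10x Genomics 3′ kit. The sample labels do not give the number of tumours in a library. The submitters' processing notes name Cell Ranger 6.1.1 and mm10. The matrix that the authors deposited gives whole-number UMI counts by gene and cell, without normalisation. The authors filtered cells on genes, mitochondrial and ribosomal reads, and kept genes found in all of several experiments. Population names are the authors', made on a batch-corrected map with other experiments, and 3′ counting supports no comparison of levels between genes.

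Values were computed in Python 3.11.15 (numpy 2.4.6, scipy 1.17.1, pandas 2.3.3, matplotlib 3.10.9). UMIs were summed by library and population and scaled to CPM, with exact Poisson intervals. Ratios carry exact binomial intervals given the pair of counts and shares of cells Clopper-Pearson or, for differences, Newcombe intervals (all 95%). A ratio needed 50 cells in each library and 20 UMIs in a population, or 100 UMIs over all cells, and 2-fold was the call. A count of 0 allows up to 3 UMIs. Steps were tested on simulated data. No doublet caller was run. Instead, the richest 5% of cells and cells with markers of another lineage were left out in turn. Macrophages were TAM_C1q, TAM_H2Ab1, TAM_Spp1, TAM_cycling, Ctsk_Macro and Macro.

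The members and lists were chosen with earlier results of these data known. Named genes were the 7 members, pathway genes 2-fold apart over all cells with Il15ra, Il2rb, Il2rg, Adam10, Adam17, Dpp4, Ifng and Irf1, and the 3 genes most like each member among those with at least 500 UMIs. Ccr1 and the marker genes were added to these after their values were seen. Cxcl11, Ccl19, Ccl21a, Ccr4, Cx3cr1, Ackr1 and Ackr2 were not analysed here. Of 70 marker genes 64 were in the matrix. Promoter windows were taken from RefSeq for 4 of the 7 members, and gene positions from GENCODE M21. Alternatives included TMM scaling (edgeR 4.0.16) and median-of-ratios scaling (DESeq2 1.42.0) in R 4.3.3, which served for scaling factors only. Some results of the rule for named genes are not reported here.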

Additional observations from a re-analysis of the deposited data

Results flagged for a closer look

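Several members had ratios of opposite sign in populations of the same pair of libraries, and each such difference between populations was not tested, since there was 1 library per group. Cxcl9 had a log2 ratio of 3.43 (2.41 to 4.57) in NK_cells and -2.64 (-3.09 to -2.22) in Infl_Mono. The first value came from 1 RTT cell, and the second from 47 RTT UMIs in 4 cells. Cxcl10 had 1.26 (1.19 to 1.33) in Infl_Mono and -3.37 (-3.67 to -3.07) in cDC2. Ccl5 had 1.41 (1.34 to 1.48) in DC3 and -2.65 (-3.05 to -2.28) in cDC2.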

How the results depend on the processing

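The count of members at least 2-fold lower over all cells was 5 under every alternative run, and the lower pairs numbered 10 to 15 against 13. Of 391 single ratios recomputed, 287 moved by less than their counting interval, 102 moved further and 2 that had passed 2-fold changed sign, and 193 of 205 calls of 2-fold were kept while 10 were gained. The sign changes were Cxcl16 in NK_cells without cells carrying markers of another lineage (-0.12) and Ccl5 in TAM_cycling without the richest cell (0.017), an alternative chosen after seeing the data. The count of higher pairs went from 7 to 4 and that of lower pairs from 13 to 10 when the whole interval had to pass 2-fold. The monocytes' share of Cxcl9 and Cxcl10 UMIs was 67.6% in NTT and 31.5% in RTT with at least 1500 genes per cell, 78.3% and 45.0% after thinning, and 32.4% in RTT without the richest 5% of cells. The NK_cells' share of Cxcr6 in NTT was 95.1% after thinning. Without thinning, 47.2% of NTT NK_cells had a Cxcr6 UMI and 22.5% a Cxcr3 UMI, and the share of Cxcl9 cells with Cxcl10 was 48.5% in NTT and 31.0% in RTT. That share was 27.4% in NTT at 1000 UMIs.

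The part of the difference given by population shares was, with NTT levels and then with RTT levels, 70.1% and 201% for Cxcl9, 103% and 195% for Cxcl10, -31.1% and 56.5% for Cxcl16, 124% and 250% for Ccl5, 81.2% and 41.6% for Il15, 140% and 169% for Cxcr3, and 93.8% and 61.1% for Cxcr6. Ctsk_Macro had 0 NTT cells, and its RTT level stood in for the missing one. In NK_cells thinned to 2000 UMIs, Cxcr3 with Cd3 was 78.6 CPM in NTT and 132 CPM in RTT, Cxcr6 with Cd3 was 487 CPM in RTT, and both were 0 without Cd3 in RTT, where 3 cells remained. Except where the construction of an alternative shows it, as with fewer cells or UMIs, the cause was not tested.

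Other 2-fold calls depended on a setting. Without the richest cell, Il15 in cDC2 was -0.91, and Ccl5 (-1.01) and Il15 (-1.01) in Monocyte_1 passed 2-fold. Ccl5 in Infl_Mono passed it upward under 2 settings (1.16 and 1.32), and Cxcl10 in NK_cells passed it downward under several settings (-1.86 to -1.04). Ccl5 in TAM_Spp1 was 0.83 after thinning. Thinning also widened Cxcr3 in cDC1 (3.70, on 2 and 18 UMIs), Il15 in TAM_Spp1 (-3.94), Ccl5 in cDC2 (-3.66) and Cxcl9 in cDC2 (-1.92), and Cxcl10 in cDC2 was -3.99 without the 5% of cells richest in UMIs. No paired analysis was possible because each group had 1 sample. With 1 library per group, no value here can be set against the spread between mice. Several RTT levels rest on under 50 UMIs, among them Cxcl9 in Infl_Mono (47) and TAM_Spp1 (30), Il15 in Infl_Mono (34) and Cxcr3 in NK_cells (18) and cDC1 (39).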
